A study of Mus musculus with 12 samples.

Results

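The genes described here encode enzymes that add methyl groups to histones and other proteins, or take them off. They were taken by name from a table of 29462 genes measured in cultured mouse aortic cells: the demethylases Kdm1 to Kdm8, the Kmt2 and Kmt5 families, the Setd, Ezh, Suv39h, Ehmt and Nsd genes, Smyd1 to Smyd5 and the numbered Prmt genes, without the Y-linked Kdm5d. The rule gave 59 genes, 57 of them protein coding, and the other two were Kdm4dl, a pseudogene of Kdm4d, and Kdm6bos, an antisense gene that overlaps Kdm6b. The rule takes genes by name and not by measured value, though it was set with earlier results of these data known. Of the 59, 53 reached the level for testing, which was 1 FPKM or more in 6 or more libraries of the 12, and all 53 were at or above 1 FPKM in every library.

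Histone methylation works through writers, which transfer a methyl group from S-adenosylmethionine to a lysine or arginine, and erasers, which remove it. Methylation of lysine 4 or 36 of histone H3 (H3K4, H3K36) is known from active promoters and transcribed gene bodies, whereas H3K9 and H3K27 methylation mark heterochromatin and Polycomb-silenced genes, and H4K20 methylation is tied to chromosome compaction and replication. Nearly all erasers outside the Kdm1 pair carry a JmjC domain, which uses iron, oxygen and 2-oxoglutarate. The genes were sorted by the residue their enzyme is best known for, as a writer or an eraser, with the arginine methyltransferases and the enzymes of mainly non-histone or unsettled substrates apart.

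The cells were primary aortic smooth muscle cells, per the labels, isolated from C57BL/6J mice (WT) or from mice with a global knockout of cystathionine gamma-lyase, CSE (KO). The cells of all 12 libraries, 6 per genotype, received angiotensin II at 1 uM for 24 h, in medium with serum, so every comparison here is KO against WT under angiotensin II. The labels used here give neither the age of the mice nor whether libraries of the same genotype had their own animal or culture, so each p-value speaks for the variation among these libraries alone, possibly a technical one. Polyadenylated RNA was sequenced, and the values are FPKM (fragment counts relative to a gene's length and to all mapped fragments), which summed to between 255538 and 281432 per library; depth in reads is unknown.

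Some features of the libraries touch the results below. Cth, which encodes CSE, was at most 0.08 FPKM in WT and 0.02 in KO, so its level checks neither genotype label. Of 9 smooth muscle markers 5 were below 1 FPKM in all libraries, among them Myh11, the smooth muscle myosin heavy chain, at no more than 0.03 FPKM. Acta2, smooth muscle actin, held at least 75.28. Cald1 rose from 27.37 to 29.16 FPKM in WT to 85.11 to 95.47 in KO. Lmod1, Cnn1 and Tagln rose at low levels, at most 1.32 FPKM (exact permutation adjusted p = 0.022, 0.022 and 0.039). Des, Myh11, Myocd, Acta2 and Smtn were not called. For Acta2 and Smtn the first 4 KO replicates lay below every WT library. Acta2 held 75.28 to 85.09 FPKM there, against 111 to 140.4 in WT. The remaining KO libraries held 141.13 and 145.52 FPKM of Acta2, and 12.26 and 20.53 of Smtn. Cdh1, E-cadherin, was at 63.33 to 67.56 FPKM in WT and 0.48 to 1.18 in KO, and the summed level of 8 epithelial and mesothelial markers was 146 to 155 FPKM in WT and 44.6 to 67.9 in KO, a sum carried by Cdh1 and Krt19. Other members of that list went the opposite way without overlap, such as Wt1, at 0.1 to 0.14 FPKM in WT and 1.27 to 1.71 in KO, and Upk3b, at 0.37 to 0.59 and 1.87 to 2.76. The 4 endothelial markers summed to at most 0.28 FPKM. Summed fibroblast markers, mostly Col1a1, spanned 541 to 572 FPKM in WT and 416 to 1030 in KO. Col3a1 was at 0.44 to 0.71 FPKM in WT and 19.57 to 154.74 in KO. Pdgfra was at 0.86 to 1.49 and 5.09 to 13.43. Dcn was not called (limma adjusted p = 0.73). Its first 4 KO replicates lay above the WT range of 62.25 to 79.26 FPKM, at 131.51 to 151.34. KO replicates 5 and 6 lay below that range, at 26.69 and 22.08. Lum held at most 0.09 FPKM in any library. Summed macrophage and leukocyte markers spanned 2.09 to 2.84 FPKM in WT and 7.87 to 14 in KO. Ptprc and Adgre1, the defining members of that list, were at no more than 0.04. KO replicates 5 and 6 stood apart from KO replicates 1 to 4, also in cycling: Mki67, a marker of dividing cells, was at 20.13 to 27.48 FPKM in WT, 14.18 to 18 in KO replicates 1 to 4, 31.46 in KO replicate 5 and 119.95 in KO replicate 6. The cycling markers did not move alike: Cdk1 and Ccnb1 were higher than in WT also in KO replicates 1 to 4 (log2 change 0.34 and 0.21, limma adjusted p = 0.0014 and 0.036), and both were highest in KO replicate 5. The part of cell makeup, cycling and these libraries in the differences below was not tested, and in bulk RNA fewer cells of a type and less RNA per cell cannot be told apart.

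More of these genes fell than rose in KO. A gene is called here when limma's Benjamini-Hochberg adjusted p over all 11831 genes tested is at most 0.05, and changes are differences of mean log2(FPKM + 1), KO minus WT. Of the 53 genes 22 were lower and 10 higher in KO, and 21 were not called. The called share, 60.4%, sits beside 63.5% among all genes tested; 30.9% of all genes were called lower against 41.5% here, and 32.6% higher against 18.9% here. The median change was -0.11 for the 53 genes and 0.01 for all genes tested. Most changes were small: 9 of the 53 (17%) were called with a change of at least 0.5, Nsd1 and Suv39h1 upward and Kdm3a, Kdm4b, Kdm5a, Kdm5b, Prmt7, Setd5 and Setd6 downward, against 31.1% of all genes. In 22 of the 53 genes (41.5%) every KO value lay on 1 side of every WT value, against 46.4% of all genes. When KO replicates 5 and 6 were left out, 39 of the 53 (73.6%) were called, against 77.1% of all genes: 13 higher, where 39.9% of all genes were, and 26 lower, where 37.1% were. There the median change was -0.13.

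**Figure D1:**
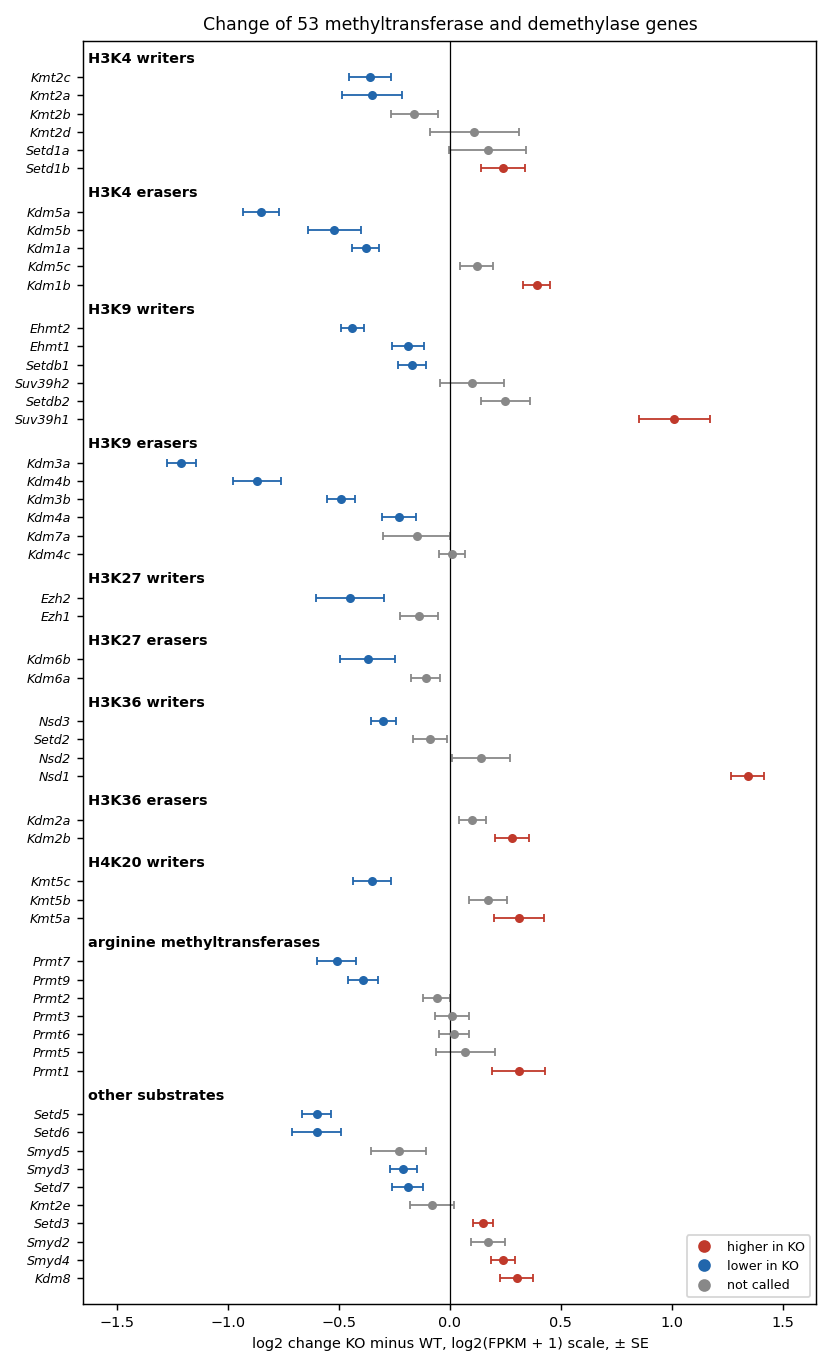
Change of each of the 53 tested genes between KO and WT on the log2(FPKM + 1) scale (horizontal axis), grouped by target residue and role; points are differences of means over 6 libraries per genotype, bars are standard errors, and red, blue and grey mark genes higher, lower and not called in KO. Nsd1 and Suv39h1 lie farthest to the right, at 1.34 and 1.01, and Kdm3a farthest to the left, at -1.21.

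The H3K9 erasers that the name rule took fell or were not called, and none of them rose. Of the 6 that could be tested, Kdm3a, Kdm3b, Kdm4a and Kdm4b were lower in KO, each with all 6 KO values below all 6 WT values, and Kdm4c and Kdm7a were not called (63.5% of all genes were called and 22.5% lay below without overlap). Related genes outside the rule are not counted here. Of these, Phf2 and Phf8 rose without overlap (log2 change 0.53 and 0.33, limma adjusted p = 1.6e-05 and 4.5e-05). Jmjd1c was not called (0.16, limma adjusted p = 0.089). Kdm3a, which removes the lower methylation states of H3K9, stands on the minus strand of chromosome 6 from 71588972 to 71632990 (ENSMUSG00000053470, GRCm38, GENCODE M21). Its WT libraries held 19.09 FPKM at the lowest, 20.4 at the median and 21.3 at the highest, and its KO libraries 6.92, 8.22 and 9.22. Every KO library thus held less than any WT library by a wide margin, and the mean was 2.46-fold lower (log2 change -1.21 ± 0.066 SE, limma adjusted p = 3.5e-09).

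Kdm3a was the steepest fall among these genes, and its promoter is shown for that reason. It is known as a gene induced by hypoxia-inducible factors, whose core binding letters are ACGTG or GCGTG. The RefSeq promoter (GRCm38.p6, minus strand of chr6:71632868-71633167, 250 bases before to 50 after the start, written 5′ to 3′) has 1 such match on either strand, in capitals:
Kdm3a: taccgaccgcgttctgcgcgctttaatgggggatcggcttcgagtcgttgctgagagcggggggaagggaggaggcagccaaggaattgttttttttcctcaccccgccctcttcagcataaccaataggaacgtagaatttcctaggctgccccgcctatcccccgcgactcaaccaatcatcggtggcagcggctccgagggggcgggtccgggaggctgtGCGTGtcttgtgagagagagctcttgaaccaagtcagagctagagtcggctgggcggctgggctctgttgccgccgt
Of 32817 promoters of this length 43.8% hold these letters, and among the 44 genes described here with a promoter at hand 31 do. By call these were 12 of 16 genes called lower, 6 of 9 called higher and 13 of 19 not called. The genes called higher include Smyd1, called by exact permutation and not by limma. The windows of Setd5, called lower, and of Smyd1 lie 27570 and 59952 bases from the start of the GENCODE gene. Both count as holding no match. The GC content of the windows was not accounted for. The motifs were chosen with the values known.

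Kdm4b, a demethylase of trimethylated H3K9, was at 8.84, 9.22 and 9.93 FPKM (lowest, median, highest) in WT and at 3.05, 5.22 and 5.51 in KO, a 1.98-fold lower mean (log2 change -0.87 ± 0.109 SE, limma adjusted p = 1.2e-05). KO replicates 5 and 6, at 3.05 and 3.82, lay below the other 4, which held 5.19 to 5.51. Kdm3b, the close relative of Kdm3a, went from 8.81 ± 0.378 FPKM (SD, n = 6) to 6 ± 0.602, and Kdm4a, which also acts on H3K36, from 13.5 ± 0.711 to 11.4 ± 1.33 (limma adjusted p = 1.3e-05 and 0.017). Kdm4c held 3.82 ± 0.26 FPKM in WT and 3.86 ± 0.326 in KO (log2 change 0.01 ± 0.059 SE). Kdm7a, which acts on H3K9 and H3K27, was at 2.21 to 2.7 FPKM in WT and 2.29 to 3.02 in KO replicates 1 to 4, but at 1.12 and 1.32 in KO replicates 5 and 6.

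**Figure D2:**
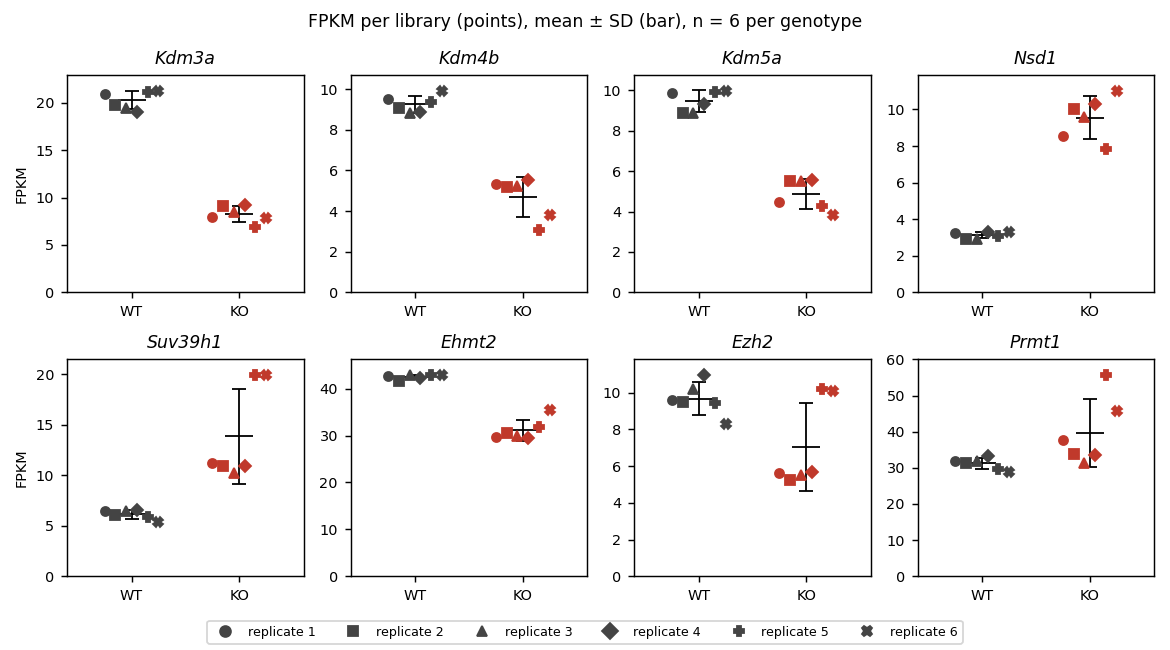
FPKM of 8 genes in each library (vertical axes from 0, one panel per gene), with WT in grey and KO in red, a symbol for each replicate number, and the mean with its SD (n = 6). Kdm3a, Kdm4b, Kdm5a and Ehmt2 lie lower and Nsd1 and Suv39h1 higher in all KO libraries, while in Ezh2 KO replicates 5 and 6 lie at 10.18 and 10.1, within the WT range of 8.32 to 10.98.

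Among the writers of H3K9 methylation Suv39h1 rose, Ehmt1, Ehmt2 and Setdb1 fell, and Suv39h2 and Setdb2 were not called. The called share was 66.7%, near the 63.5% of all genes. Suv39h1, which trimethylates H3K9 in pericentric heterochromatin, stands on the minus strand of chromosome X from 8061171 to 8074760 (ENSMUSG00000039231). Its levels were 5.37, 6.27 and 6.56 FPKM (lowest, median, highest) in WT and 10.26, 11.1 and 19.96 in KO. The groups did not overlap, and the KO libraries split: replicates 1 to 4 held 10.26 to 11.19 and replicates 5 and 6 held 19.89 and 19.96. The mean was 2.26-fold higher (log2 change 1.01 ± 0.161 SE, limma adjusted p = 0.00011), and without KO replicates 5 and 6 the change was 0.73 (limma adjusted p = 4.9e-08).

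Ehmt2, which encodes the H3K9 dimethyltransferase G9a, had the highest level of all 59 genes in WT. It held 41.7, 42.7 and 42.96 FPKM in WT and 29.4, 30.2 and 35.36 in KO, a narrow WT range above every KO library (1.37-fold lower, log2 change -0.44 ± 0.051 SE, limma adjusted p = 5.4e-06). Its partner enzyme Ehmt1 went from 8.79 ± 0.392 to 7.59 ± 0.959 FPKM and Setdb1, which silences retroelements, from 7.75 ± 0.542 to 6.79 ± 0.598, both with overlapping groups (limma adjusted p = 0.031 and 0.032). The call of Ehmt1 was lost without WT replicate 1, 4 or 6 or KO replicate 1 (limma adjusted p = 0.058 to 0.064), and that of Setdb1 without WT replicate 1, 4 or 6 or KO replicate 1, 2 or 5 (0.051 to 0.078). Suv39h2 was at 1.36 to 1.97 FPKM in WT and 1.33 to 1.5 in KO replicates 1 to 4, but at 3.17 and 2.58 in KO replicates 5 and 6. Setdb2 was at 1.56 ± 0.157 and 2.09 ± 0.632 FPKM (limma adjusted p = 0.063).

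For the H3K9 genes of the name rule, writer RNA per eraser RNA was higher in KO. Summed over the genes of each class, H3K9 erasers came to 55.4 to 61.5 FPKM in WT and 28.4 to 40.3 in KO, and H3K9 writers to 66.6 to 70.1 and 57.3 to 76.8. The ratio of writers to erasers was 1.11 to 1.25 in WT and 1.47 to 2.47 in KO, at 1.47 to 1.54 in KO replicates 1 to 4, 2.47 in KO replicate 5 and 2.2 in KO replicate 6. For these genes, no KO library fell within the WT range. These sums describe RNA, with no test, and are carried by the abundant members, Ehmt2 among the writers and Kdm3a among the erasers of WT. They leave out related genes outside the name rule, such as Phf2 and Phf8, which rose. Phf2 was at 9.06 to 9.98 FPKM in WT and 12.3 to 17.34 in KO, and Phf8 at 2.4 to 2.78 and 3.34 to 3.74. The ratio was not computed with them, so the separation is shown for the genes of the name rule only and need not hold with them. The H3K36 ratio was also higher in every KO library, at 1.32 to 1.48 in WT and 1.54 to 1.68 in KO, while those of H3K4 and H3K27 were not. Its rise was carried by 1 writer, Nsd1, at 2.93 to 3.31 FPKM in WT and 7.81 to 11.03 in KO. Of the other H3K36 writers, Nsd3 fell and Setd2 and Nsd2 were not called. Kdm4a, which also acts on H3K36, was counted with the H3K9 erasers only.

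**Figure D3:**
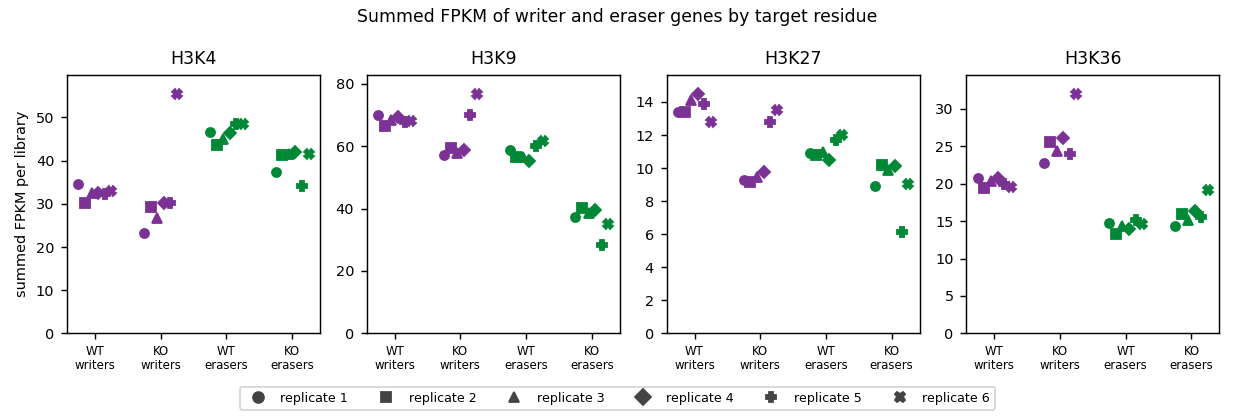
Summed FPKM of writer genes (purple) and eraser genes (green) for H3K4, H3K9, H3K27 and H3K36 in each WT and KO library, with a symbol for each replicate number; vertical axes start at 0 and differ between panels. H3K9 erasers lie at 28.4 to 40.3 in KO, below the WT range of 55.4 to 61.5, and the H3K4 writers of KO replicate 6 lie at 55.5, above every other library.

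Of the 5 H3K4 erasers Kdm1a, Kdm5a and Kdm5b were lower in KO, Kdm1b was higher, and Kdm5c was not called, where 30.9% of all genes were lower and 32.6% higher; the class was not tested as a whole. Kdm5a, a demethylase of trimethylated H3K4 that binds the retinoblastoma protein, held 8.86, 9.61 and 9.99 FPKM in WT and 3.84, 5 and 5.54 in KO (1.95-fold lower, log2 change -0.85 ± 0.082 SE, limma adjusted p = 1.1e-06). Kdm5b, its relative, held 4.82, 5.06 and 5.84 FPKM in WT and 2.09, 3.85 and 4.17 in KO (log2 change -0.52 ± 0.12 SE, limma adjusted p = 0.002). For both genes the WT and KO groups were separate, and KO replicates 5 and 6 were lower than the other KO libraries.

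Kdm1a and Kdm1b, the flavin-dependent demethylases LSD1 and LSD2, moved in opposite directions. Kdm1a went from 13 ± 0.83 to 9.78 ± 0.792 FPKM (log2 change -0.38 ± 0.062 SE, limma adjusted p = 0.00012). Kdm1b was at 3.05, 3.25 and 3.81 FPKM in WT and 4.01, 4.72 and 4.92 in KO, 1.41-fold higher on average (log2 change 0.39 ± 0.059 SE, limma adjusted p = 6e-05). Neither gene's groups overlapped, so the LSD1 gene remained the more abundant of the pair with a smaller lead in KO.

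For the H3K4 writers 1 KO library differed from the rest. Kmt2a and Kmt2c, which encode MLL-family enzymes of promoters and enhancers, were called lower. Setd1b, a catalytic subunit of the SET1 COMPASS complex, was called higher, and Kmt2b, Kmt2d and Setd1a were not called. The called share was 50%, against 63.5% of all genes. In all 6 genes the groups overlapped, whereas 46.4% of all genes had separate groups. Kmt2c held 2.9, 3.3 and 3.42 FPKM in WT and 1.67, 2.5 and 2.96 in KO (log2 change -0.36 ± 0.095 SE, limma adjusted p = 0.0044). Setd1b held 1.94, 2.21 and 2.36 FPKM in WT and 2.09, 2.81 and 3.99 in KO (log2 change 0.24 ± 0.1 SE, limma adjusted p = 0.047). Its call was lost when KO replicate 2, 3, 4 or 6 or any of the 6 WT libraries was left out (limma adjusted p = 0.054 to 0.093). That of Kmt2a (-0.35 ± 0.134 SE, limma adjusted p = 0.033) was lost without WT replicate 1, 3, 4, 5 or 6 or without KO replicate 1, 3 or 5 (0.053 to 0.074).

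KO replicate 6 was the highest KO library for each of these 6 genes. Kmt2d stood at 15.13 FPKM there against 4.5 to 7.04 in the other KO libraries and 5.62 to 6.98 in WT, Setd1a at 15.73 against 6.26 to 9.53 and 6.88 to 7.26, and Kmt2a at 9.65 against 4.17 to 6.07 and 7.08 to 7.99. Setd1a changed by 0.17 ± 0.173 SE with all libraries (limma adjusted p = 0.4) and by -0.09 with KO replicates 1 to 4 only (limma adjusted p = 0.036), a change of direction. With those 4 KO libraries Kmt2b also fell (-0.26, limma adjusted p = 0.0011) and Kmt2a fell by 0.47 (limma adjusted p = 0.00013). The longest GENCODE transcripts of the 6 genes span 6487 bases for Setd1a to 19823 for Kmt2d, and were looked at after these values were seen. Among all tested genes, those whose longest transcript has at least 12000 bases were 0.13 higher in KO replicate 6 than in KO replicates 1 to 4 at the median (105 genes), while those under 2000 bases were 0.05 lower (median -0.05, 3287 genes). The difference between KO replicate 6 and KO replicates 1 to 4 also followed the GC content of the longest transcript across genes (Spearman's rho 0.25 over 11824 genes of the same libraries, a description, against 0.01 for transcript length). The part of transcript length and GC content in the levels of KO replicate 6 was not tested.

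Nsd1, a writer of dimethylated H3K36, rose the most of all 59 genes on the log2 scale. It stands on the plus strand of chromosome 13 from 55209782 to 55318325 (ENSMUSG00000021488). WT libraries held 2.93, 3.17 and 3.31 FPKM and KO libraries 7.81, 9.79 and 11.03, so that the lowest KO library was more than 2-fold above the highest WT library. The mean was 3.05-fold higher (log2 change 1.34 ± 0.074 SE, limma adjusted p = 3.8e-09), and KO replicates 5 and 6, at 7.81 and 11.03, lay on either side of the other 4.

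The other H3K36 genes changed less. Nsd3 fell from 4.37 ± 0.121 to 3.37 ± 0.315 FPKM without overlap (log2 change -0.30 ± 0.055 SE, limma adjusted p = 0.00034). Setd2, the trimethylating enzyme that travels with RNA polymerase, was at 8.04 ± 0.18 and 7.57 ± 1.21 FPKM (limma adjusted p = 0.34) and was lower with KO replicates 1 to 4 only (log2 change -0.13, limma adjusted p = 0.003). Nsd2, at 3.8 to 5.1 FPKM in WT, held 4.08 to 4.67 in KO replicates 1 to 4, 6.75 in KO replicate 5 and 7.62 in KO replicate 6 (limma adjusted p = 0.36). In WT, Nsd1 was thus the least abundant of the 4 writers per length of gene model, and in KO the most abundant on average. Of the erasers, Kdm2b, which also recruits a Polycomb complex to CpG islands, went from 2.03 to 2.34 FPKM in WT to 2.48 to 3.8 in KO (log2 change 0.28 ± 0.075 SE, limma adjusted p = 0.0058), and Kdm2a was at 12.2 ± 0.574 and 13.2 ± 1.2 FPKM (limma adjusted p = 0.16). Summed H3K36 writers came to 19.4 to 20.8 FPKM in WT and 22.7 to 32 in KO, a rise carried mainly by Nsd1.

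Of the H3K27 enzymes Ezh2 and Kdm6b were lower in KO, and Ezh1 and Kdm6a were not called. Ezh2, the catalytic subunit of Polycomb repressive complex 2 in dividing cells, held 8.32, 9.55 and 10.98 FPKM in WT and 5.25, 5.64 and 10.18 in KO. Its fall rests on KO replicates 1 to 4, at 5.25 to 5.66, since KO replicates 5 and 6 were at 10.18 and 10.1 (log2 change -0.45 ± 0.155 SE, limma adjusted p = 0.021; -0.71 and 2.7e-07 from KO replicates 1 to 4). The exact rank-sum test did not call it (adjusted p = 0.18). Mki67 and Cdk1, a mitotic kinase gene, also had their highest KO values in replicates 5 and 6 (Cdk1 34.67 and 26.1 FPKM, against 14.26 to 16.32 in KO replicates 1 to 4 and 9.93 to 13.94 in WT), and the part of cycling was not tested.

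Kdm6b, an H3K27 demethylase induced in inflammation, held 6.8, 7.41 and 8.02 FPKM in WT and 3.2, 6.21 and 6.49 in KO, with the lowest value in KO replicate 5 (log2 change -0.37 ± 0.124 SE, limma adjusted p = 0.019). All KO libraries lay below all WT libraries. Ezh1, the Polycomb subunit of resting cells, was at 4.03 ± 0.409 and 3.6 ± 0.535 FPKM (limma adjusted p = 0.19), and in KO replicates 5 and 6, at 2.61 and 3.44, it was lower than in the other KO libraries, opposite to Ezh2. Summed H3K27 writers over summed erasers came to 1.07 to 1.38 in WT, 0.898 to 1.04 in KO replicates 1 to 4, 2.09 in KO replicate 5 and 1.49 in KO replicate 6.

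The H4K20 enzymes moved apart. Kmt5a, which places the first methyl group in mitosis, held 11.08, 11.6 and 12.33 FPKM in WT and 12.81, 13 and 21.61 in KO, again with the highest values in KO replicates 5 and 6, at 16.25 and 21.61 (log2 change 0.31 ± 0.112 SE, limma adjusted p = 0.028). Its groups did not overlap, yet the call was lost without WT replicate 5 or 6 or KO replicate 5 (limma adjusted p = 0.055, 0.053 and 0.054), with quantile normalization (0.085), with no filter on low values and with the replicate block (0.055 each). Kmt5c, which adds further methyl groups, held 3.55, 3.95 and 4.46 FPKM in WT and 2.36, 2.84 and 3.71 in KO (log2 change -0.35 ± 0.086 SE, limma adjusted p = 0.0033), and its groups overlapped in KO replicate 6 alone. Kmt5b was at 2.59 ± 0.173 and 3.07 ± 0.539 FPKM (limma adjusted p = 0.096) and was higher with KO replicates 1 to 4 only (0.30, limma adjusted p = 7.3e-05).

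Promoters of Ezh2, Kmt5c and Suv39h1 are shown for the following reason. Ezh2 and Suv39h1 had their highest KO values in the replicates with the most Mki67, Ezh2 is known as a target of the E2F factors of the cell cycle, and Kmt5c was the other gene here with E2F letters. RefSeq promoters were at hand for 44 of the 59 genes. The letters TTTCCCGC or TTTGGCGC, spellings of the E2F motif searched on both strands, occurred in those of Ezh2 and Kmt5c among the 44, and in 1.56% of 32817 promoters; matches are in capitals. The windows, written 5′ to 3′ in GRCm38.p6, are chr6:47594981-47595280 on the minus strand for Ezh2, chr7:4739877-4740176 on the plus strand for Kmt5c and chrX:8074711-8075010 on the minus strand for Suv39h1. The RefSeq start of Ezh2 lies 311 bases inside the GENCODE gene's end.
Ezh2: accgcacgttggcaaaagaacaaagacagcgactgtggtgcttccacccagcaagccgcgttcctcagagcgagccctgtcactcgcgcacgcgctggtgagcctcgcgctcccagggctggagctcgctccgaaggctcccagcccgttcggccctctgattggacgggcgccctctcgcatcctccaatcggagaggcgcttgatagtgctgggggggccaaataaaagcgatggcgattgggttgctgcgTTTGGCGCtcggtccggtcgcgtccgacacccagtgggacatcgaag
Kmt5c: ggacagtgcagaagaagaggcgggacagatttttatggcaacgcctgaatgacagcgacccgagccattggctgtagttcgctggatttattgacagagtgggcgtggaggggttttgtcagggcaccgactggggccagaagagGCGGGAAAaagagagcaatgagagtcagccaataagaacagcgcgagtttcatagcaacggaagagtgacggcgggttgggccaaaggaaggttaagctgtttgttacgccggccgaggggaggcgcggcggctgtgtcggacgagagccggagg
Suv39h1: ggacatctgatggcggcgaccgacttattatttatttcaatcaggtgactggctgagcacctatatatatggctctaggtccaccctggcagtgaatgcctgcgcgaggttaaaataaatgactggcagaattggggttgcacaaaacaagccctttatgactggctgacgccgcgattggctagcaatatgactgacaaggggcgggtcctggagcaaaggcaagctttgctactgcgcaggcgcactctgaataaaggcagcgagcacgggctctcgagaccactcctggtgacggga
Ezh2 has 1 match, as TTTGGCGC on the strand shown, and Kmt5c has 1, as TTTCCCGC on the opposite strand. Suv39h1 has neither spelling in this window.

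Of the 7 arginine methyltransferases tested, 3 were called (42.9%, against 63.5% of all genes), and 5 once KO replicates 5 and 6 were left out (against 77.1%). Prmt7 and Prmt9 fell, Prmt1 rose, and Prmt2, Prmt3, Prmt5 and Prmt6 were not called. Prmt1, which makes most of the asymmetric dimethylarginine of cells, was the most abundant of them at 28.97, 31.7 and 33.25 FPKM in WT and 31.42, 35.7 and 55.76 in KO. Among the KO libraries only replicate 3, at 31.42, lay within the WT range, and replicates 5 and 6, at 55.76 and 45.8, stood well above the rest (log2 change 0.31 ± 0.12 SE, limma adjusted p = 0.038). The call of Prmt1 was lost under 12 of the alternatives run, among them quantile normalization (limma adjusted p = 0.24) and leaving out WT replicate 1, 2, 3, 5 or 6 or KO replicate 1 or 6 (0.053 to 0.075).

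Prmt5, the main enzyme of symmetric dimethylation, was at 11.6 to 12.96 FPKM in WT, 10.6 to 11.59 in KO replicates 1 to 4, 18.54 in KO replicate 5 and 18.19 in KO replicate 6. Over all libraries it was not called (limma adjusted p = 0.66), and it was lower with KO replicates 1 to 4 only (-0.16, limma adjusted p = 0.0034). Prmt7, which makes monomethylarginine, held 5.1, 5.93 and 6.84 FPKM in WT and 3.21, 3.7 and 4.63 in KO (1.53-fold lower, log2 change -0.51 ± 0.089 SE, limma adjusted p = 0.00024). Prmt9, which methylates a splicing factor, held 3.09, 3.34 and 3.47 FPKM in WT and 1.71, 2.45 and 2.57 in KO (log2 change -0.39 ± 0.068 SE, limma adjusted p = 0.0002). Both were lower in every KO library than in any WT library. Prmt2, Prmt3 and Prmt6 changed by -0.06, 0.01 and 0.02, with standard errors of 0.062, 0.077 and 0.068.

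Of the 10 tested genes with mainly non-histone or unsettled substrates, Setd5, Setd6, Setd7 and Smyd3 fell, Kdm8, Setd3 and Smyd4 rose, and Kmt2e, Smyd2 and Smyd5 were not called. The called share was 70%, near the 63.5% of all genes, of which 30.9% were lower and 32.6% higher. Setd5, a gene of intellectual disability syndromes whose enzyme activity is debated, held 10.69, 11.2 and 11.58 FPKM in WT and 5.78, 7.29 and 7.75 in KO (1.59-fold lower, log2 change -0.60 ± 0.065 SE, limma adjusted p = 2.9e-06). Setd6, which methylates the NF-kB subunit RelA, held 4.75, 6.21 and 7.2 FPKM in WT and 2.91, 3.33 and 4.5 in KO (log2 change -0.60 ± 0.109 SE, limma adjusted p = 0.00031). In both genes the highest KO library lay below the lowest WT library.

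The rises in this class were smaller. Kdm8, a JmjC hydroxylase, went from 1.34 ± 0.191 to 1.89 ± 0.27 FPKM, Smyd4 from 2.34 ± 0.181 to 2.95 ± 0.187, and Setd3, the actin histidine methyltransferase, from 11.6 ± 0.516 to 12.9 ± 0.412, all without overlap (limma adjusted p = 0.0035, 0.0013 and 0.011). The call of Setd3 was lost with quantile normalization, where its change was 0.08 against 0.15 (limma adjusted p = 0.13), and with the replicate block (0.057). Setd7, which methylates H3K4 and many other proteins, went from 12.3 ± 0.241 to 10.7 ± 1.31 FPKM (limma adjusted p = 0.026). Its call was lost without WT replicate 1 or KO replicate 1 (limma adjusted p = 0.053 and 0.059) and once both KO replicates 5 and 6 were left out (0.059). Smyd3 went from 1.75 ± 0.179 to 1.38 ± 0.152 FPKM with overlapping groups (limma adjusted p = 0.0092). Smyd2, the most abundant of this class, held 22.66 to 25.84 FPKM in WT, 23.53 to 25.97 in KO replicates 1 to 4, 30.42 in KO replicate 5 and 31.85 in KO replicate 6 (limma adjusted p = 0.068). Smyd5 had 5.88 to 6.68 FPKM in KO replicates 1 to 4, below its WT range of 7.77 to 9.83, and 9.41 and 10.76 in KO replicates 5 and 6.

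The 6 genes below the level for testing were Kdm4d, Kdm4dl, Kdm6bos, Prmt8, Setd4 and Smyd1, compared by exact permutation of the library labels, with the p-value adjusted over the 17229 genes below that level (11% of which were called). Smyd1, a methyltransferase of heart and skeletal muscle, passed: it was at 0.01 to 0.15 FPKM in WT and 0.18 to 0.41 in KO, low in all libraries (exact permutation p = 0.00216, the smallest these groups can give, adjusted p = 0.022). Setd4 held 0.34 to 0.46 FPKM in WT and 0.2 to 0.37 in KO (exact permutation p = 0.00866, adjusted p = 0.067). Kdm4dl was listed at 0 in all WT libraries and at 0 to 0.05 FPKM in KO (exact permutation p = 0.0152, adjusted p = 0.096), and reads of this copy and of Kdm4d may have been split between them. Kdm4d held at most 0.15 FPKM in any library, Kdm6bos at most 0.27, and Prmt8, a brain enzyme, was listed at 0 in all libraries but KO replicate 1, at 0.02. The sources used here do not say if counting used strand, so reads of Kdm6bos and Kdm6b cannot be told apart with certainty.

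KO replicates 5 and 6 differed from KO replicates 1 to 4 in many of these genes. In 28 of the 53 tested genes (52.8%) both lay above or both below all of KO replicates 1 to 4, against 57.1% of all genes tested. They lay above in 17 of the 53 (32.1%, against 24.7% of all genes) and below in 11, against 32.3% of all genes. Writers and erasers sorted differently: both lay above in 9 and below in 2 of 21 histone lysine writers, and above in 1, Kdm2b, and below in 8 of 15 erasers. The erasers below were Kdm3a, Kdm4a, Kdm4b, Kdm4c, Kdm5a, Kdm5b, Kdm6a and Kdm7a. The labels give no reason for the split, and the difference between writers and erasers was not tested. The difference between KO replicate 5 and KO replicates 1 to 4 followed the length of the longest transcript across these 53 genes (Spearman's rho -0.51, a description). Over 11824 tested genes rho was -0.21. For KO replicate 6 these values were -0.11 and 0.01. The part of transcript length in the split was not tested.

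**Figure D4:**
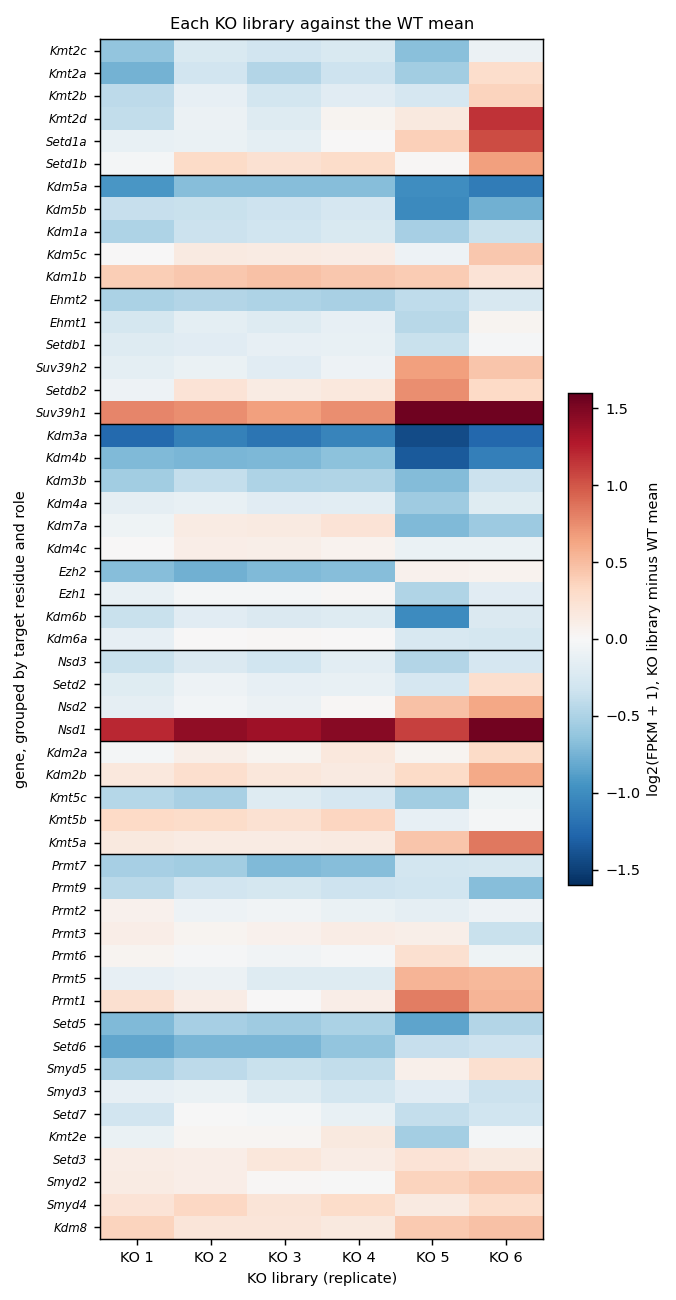
Level of the 53 tested genes in each KO library (columns) minus the WT mean on the log2(FPKM + 1) scale, red for higher and blue for lower, with genes grouped by target residue and role between black lines in the order of the plot of changes. Suv39h1 is darkest in KO replicates 5 and 6, where it held 19.89 and 19.96 FPKM, and Kmt2d and Setd1a are red in KO replicate 6.

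On chromosome X lie Suv39h1, Kdm5c and Kdm6a, the last pair known to escape X inactivation. Kdm5c, an H3K4 demethylase, held 14.58, 15.5 and 15.71 FPKM in WT and 14.45, 16.8 and 21.08 in KO (log2 change 0.12 ± 0.074 SE, limma adjusted p = 0.16), and it was higher once KO replicates 5 and 6 were left out (0.10, limma adjusted p = 0.022). Kdm6a, an H3K27 demethylase, held 3.47, 3.64 and 4.02 FPKM in WT and 2.83, 3.47 and 3.72 in KO (log2 change -0.11 ± 0.067 SE, limma adjusted p = 0.18). The groups of both genes overlapped. Xist, the RNA of the inactive X chromosome, was at 0.01 to 0.04 FPKM in WT, 2.31 to 3.53 in KO replicates 1 to 4, 0.31 in KO replicate 5 and 0.63 in KO replicate 6. Uty, the Y-linked relative of Kdm6a, was at 2.71 to 3.4 FPKM in WT and 0.8 to 1.63 in KO, and the Y-linked Ddx3y at 9.87 to 11.81 and 3.49 to 6.78. These sex-linked RNAs thus differed between the genotypes, and the part of cell sex in the levels of the X-linked genes cannot be told apart from that of genotype.

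Partners and suppliers of these enzymes were read from a list of 70 genes, of which 65 could be tested. Of these 22 were higher and 20 lower in KO, a called share close to the 63.5% of all genes, so the counts for each list below describe the list and set it apart in no way. Among 9 partners of Polycomb repressive complex 2, Eed, Phf19 and Rbbp7 rose and Aebp2 and Phf1 fell. Phf1, which binds methylated H3K36, fell from 6.45 to 8.71 FPKM in WT to 2.24 to 3.8 in KO (log2 change -1.06, limma adjusted p = 4.4e-07), while the core subunit Suz12 was not called (-0.06, limma adjusted p = 0.54). Rbbp7, a histone-binding subunit, rose by 0.55 (limma adjusted p = 3.6e-05) and Phf19, a relative of Phf1, by 0.59 (0.0016). Of 10 COMPASS partners 5 fell and 2 rose, and Ash2l (log2 change -0.36, limma adjusted p = 2.4e-05) and Wdr5 (-0.19, limma adjusted p = 0.015), core subunits shared by the Kmt2 and Setd1 enzymes, were both lower. Cxxc1, the CpG-binding subunit of the SET1 complex, also fell (-0.42, limma adjusted p = 3.2e-05), and Paxip1, a subunit of the Kmt2c and Kmt2d complexes, rose (0.34, limma adjusted p = 0.0042).

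Of 9 partners of LSD1 and of H3K9 methylation 6 fell and Cbx5 rose, beside 30.9% and 32.6% of all genes, and the list was not tested as a whole. Rcor2, a corepressor of LSD1, went from 8.29 to 9.74 FPKM in WT to 3.05 to 5.8 in KO (log2 change -1.02, limma adjusted p = 3.1e-06), and Wiz, which joins the Ehmt1 and Ehmt2 proteins, from 6.03 to 6.38 to 3.52 to 4.85 (-0.60, limma adjusted p = 2.9e-06). Both fell without overlap, as did Cbx1, Rcor3 and Atf7ip, while Cbx3 fell with overlapping groups; Cbx1 and Cbx3 encode heterochromatin proteins that bind methylated H3K9. Among 6 partners of arginine methyltransferases Btg2, a partner of Prmt1 and a p53 target, rose by 0.99 (limma adjusted p = 6.4e-10), as did Riok1 and Coprs, and Btg1 fell.

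Of 15 related genes outside the name rule that limma tested, 6 rose and 2, Mecom and Uty, fell. Below the level for limma, Prdm9 and Prdm16 were also lower (exact permutation adjusted p = 0.022 each), and Setmar was not called (0.37). Carm1, the arginine methyltransferase also known as Prmt4 and therefore close to the genes above, rose by 0.24 (limma adjusted p = 0.014). Phf2, a JmjC protein, rose by 0.53 (limma adjusted p = 1.6e-05) and Dot1l, the H3K79 methyltransferase, by 0.45 (0.0034). Among 16 tested genes of methyl donor and 2-oxoglutarate supply 7 rose and 4 fell. Nnmt, which spends methyl groups on nicotinamide, rose from 12.04 to 13.2 FPKM in WT to 23.94 to 39.56 in KO (log2 change 1.35, limma adjusted p = 8.7e-08). Idh2, which makes 2-oxoglutarate in mitochondria, fell from 38.21 to 42.56 FPKM to 23.73 to 30.94 (-0.57, limma adjusted p = 7.4e-06), while Idh1 was not called (-0.26, limma adjusted p = 0.27). Mtr, which remakes methionine, rose by 0.48 (limma adjusted p = 3e-06), and Ahcyl2, a relative of the enzyme that clears S-adenosylhomocysteine, changed by -0.69 (2.4e-08). Mat2a, which makes S-adenosylmethionine, rose by 0.29 (limma adjusted p = 0.016).

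In the authors' deposited table, 5 of the 59 genes were marked as significant: Kdm3a, Nsd1, Suv39h1, Smyd1 and Kdm4dl. The mark did not follow the authors' q-value alone, so it is not comparable with the calls made here. Kdm4b, Kdm5a and Setd5, with ratios of 1.98, 1.95 and 1.59, had a q-value listed as 0 and were not marked. Its ratios of WT over KO were 2.46 for Kdm3a, 0.33 for Nsd1 and 0.44 for Suv39h1 in the authors' deposited table.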

How the data were processed

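Polyadenylated RNA was sequenced in 12 libraries of cultured mouse aortic cells, 6 WT and 6 KO, with strand marking, per the labels' protocols. The authors deposited 1 table with an FPKM value per gene and library. It also holds, per the file headers, the authors' ratio (fold) of WT over KO with its log2 value, p-value and q-value. Per the submitters' processing notes the tools were StringTie 1.3.4d, HISAT2 2.0.4, cutadapt 1.9, edgeR and DESeq2, with the mouse build mm9 and no roles stated. FPKM carry no read depth, so no counting error could be given, and the sources used here do not say if counting used strand. Values of long and short transcripts depend on the length model behind FPKM.

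From the deposited FPKM, log2(FPKM + 1) was computed and KO was compared with WT by limma 3.58.1 (R 4.3.3, trend fitted, two-sided) over the 11831 genes that reached 1 FPKM in 6 or more libraries, with Benjamini-Hochberg adjustment over all of them and a threshold of 0.05. The log2 scale with a pseudocount of 1 understates changes of low genes. The 17229 genes below that level with any value above 0 were tested by exact permutation of the library labels, two-sided, adjusted among themselves. The fit was tested on simulated data. Positions are those of GENCODE M21 (GRCm38), matched by gene identifier, while the notes name mm9. Promoters are RefSeq sequences in GRCm38.p6.

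The members and lists were chosen with earlier results of these data known. Genes given with lowest, median and highest values were to be the called gene with the smallest p in each direction of each class, the 6 largest rises and 6 largest falls, the X-linked genes, the most abundant gene of each class, and up to 3 called partners per list. Other genes are accounted for with their means or ranges, and a few partners outside the rule (Eed, Aebp2, Suz12, Wdr5, Carm1, Dot1l, Phf8, Jmjd1c, Prdm9, Prdm16, Setmar, Idh1, Idh2, Mat2a, Coprs, Cbx3, Cbx5, Rcor3, Atf7ip) were named after their values were seen. Alternatives changed the pseudocount, the filter, the scaling, the test, the libraries and the blocking by replicate number. Kdm5d was not used here.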

Additional observations from a re-analysis of the deposited data

Results flagged for a closer look

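In 12 of the 106 groups of 6 libraries examined among the 53 tested genes, 1 library lay far from the other 5, with a gap to its nearest neighbour above Dixon's 95% critical value for the group's range. Chance flags about 1 in 20 groups. KO replicate 6 was the distant library in 8 of them. It was the highest for Kmt2d, at 15.13 FPKM with the other KO libraries at 4.5 to 7.04, for Setd1a at 15.73 (others 6.26 to 9.53), for Kmt2a at 9.65 (4.17 to 6.07), for Kmt2b at 8.03 (4.27 to 5.44), for Setd2 at 9.92 (6.49 to 7.51) and for Kdm2b at 3.8 (2.48 to 2.89). It was the lowest for Prmt3, at 3.45 FPKM (others 4.87 to 5.21), and for Kdm1b, at 4.01 (4.63 to 4.92).

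KO replicate 5 was the distant library for Kdm4a, at 8.73 FPKM (others 11.6 to 12.38), for Kdm6b, at 3.2 (5.64 to 6.49), and for Prmt6, at 3.15 (2.31 to 2.58), the last being the highest and the others the lowest of their groups. In WT, replicate 2 was the lowest for Kmt2a, at 7.08 FPKM (others 7.7 to 7.99).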

How the results depend on the processing

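Leaving aside the minimum change of 0.5 and the restriction to autosomal genes, 23 of the 32 called genes kept their call and direction under each alternative in which they were tested, and 9 lost the call under at least 1: Ehmt1, Ezh2, Kmt2a, Kmt5a, Prmt1, Setd1b, Setd3, Setd7 and Setdb1; none turned. With the filter at 5 FPKM, 20 of the genes were called, 5 of them higher, with 3 for H3K4, 1 each for H3K36 and H4K20 and 3 of other substrates, and all tested genes called came to 4775, since fewer genes were tested. With a minimum change of 0.5, 9 were called, 2 higher and 7 lower, with 2 for H3K4, 3 for H3K9, 0 for H3K27, 1 for H3K36, 0 for H4K20, 1 for arginine and 2 of other substrates, beside 16 partners and 3676 of all genes. Quantile normalization left 6 higher calls and 1 for H4K20, and no filter on low values left 1 for H4K20; the cause was not tested. The exact rank-sum test left 1 call for H3K27. With KO replicates 1 to 4 only, 5 arginine methyltransferases were called, Setd7 lost its call, and Kdm5c, Kmt2b, Kmt5b, Prmt3, Prmt5, Setd1a, Setd2 and Smyd5 gained one. Setd1a changed by -0.09 there and by -0.09 with array weights, against 0.17 with all libraries weighted alike; Kdm4c, Kdm7a, Kmt2d, Kmt2e, Nsd2, Prmt3, Prmt5, Prmt6 and Suv39h2, all not called, also changed sign under at least 1 alternative.

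Leaving out 1 library at a time gave 26 to 35 calls (7 to 11 higher, 18 to 25 lower), 39 to 47 among partners and 7121 to 8105 for all tested genes called. By class these were 5 to 7 for H3K4, 6 to 8 for H3K9, 2 for H3K27, 3 to 4 for H3K36, 1 to 3 for H4K20 (1 without WT replicate 5 or 6), 2 to 3 for arginine and 6 to 8 of other substrates. Of the 6 genes below the filter 1 to 2 were called: Setd4 also passed without KO replicate 1, and Kdm4dl when KO replicate 6 or both of KO replicates 5 and 6 were left out, each giving 2 calls. With the replicate block 25 genes were called, 6 higher and 19 lower, with 1 for H4K20. Same-numbered libraries did not deviate together (correlations of deviations -0.0582 to -0.273, and 0 of 6 pairs correlating best with their own number). These correlations cannot show whether a number also marks a shared preparation. Rescaling moved the median change of all genes to between -0.04 and 0.03.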
